A study of Mus musculus with 30 samples.

Results

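Promoter-upstream transcripts, or PROMPTs, are short RNAs made just upstream of gene promoters. Those of named genes were followed here in mouse embryonic stem cells that allow the FACT histone chaperone subunit SPT16 to be degraded on demand. A PROMPT was taken when its mean normalised count in the authors' deposited 12 h PROMPT table was 3 or more and its host's symbol was not that of a predicted gene, a RIKEN clone, a microRNA, a small nucleolar RNA or a clone accession. Of 32253 rows, 2510 reached that mean count and 1942 were those of named genes, while 568 belonged to predicted or clone-named hosts. Just inside the threshold lay the PROMPTs of Malsu1, Selenoo and Prxl2c (mean counts 3.00165, 3.00419 and 3.00494), and just outside it those of Rpl18, Lpar5 and Calm2 (2.99654, 2.99962 and 2.99972). A further 15728 rows of named genes lay below it, 9697 of them listed at a mean count of 0. Because the PROMPTs were chosen by their mean count in the 12 h table, their 12 h values are given as a description.

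Newly made RNA was captured by TT-seq, in which cells take up 4-thiouridine for a 5 min pulse and the labelled RNA is purified and sequenced. All lines derive from E14 mouse embryonic stem cells, grown without feeders in serum with LIF and inhibitors of GSK3 and MEK, and carry the auxin receptor osTIR1. SPT16-AID cells also carry a mini-AID and triple V5 tag at the C terminus of Supt16, so that the auxin 3-indoleacetic acid (IAA, 500 nM) triggers degradation of SPT16. The time course consists of 22 libraries, 2 in each of 11 groups. These are SPT16-AID cells at 0 h, SPT16-AID cells given IAA for 3, 6 or 12 h, SPT16-AID cells given the ethanol vehicle (EtOH) for 3, 6 or 12 h, untagged cells at 0 h, and untagged cells given IAA for 3, 6 or 12 h. A washout experiment has 4 IAA and 4 EtOH libraries of SPT16-AID cells, treated for 12 h and then kept for 24 h in fresh medium, with 2 libraries from each of 2 independently targeted lines, 10E and 11D, per treatment. Titles set the groups here, because the tag and treatment fields contradict them in many libraries of the time course, and the time-course protocol gives 24 h of treatment.

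The labels list each comparison table with the 6 libraries of its own time (4 at 0 h), so the tables of different times rest on different libraries of the same cell lines. The tables give 1 mean count, 1 log2 fold change with its standard error (SE) and p-values per PROMPT, and no value per library. They do not state which groups were compared or in which direction, so a change is called positive or negative as signed. Washout totals ran between 6547992 and 10978586 counts in IAA libraries and between 11068135 and 16554314 in EtOH libraries. A ribosomal RNA locus, CT010467.1, took 20.8% to 29.3% of counts in IAA libraries and 5.73% to 9.27% in EtOH libraries. Pou5f1, Nanog, Zfp42 and Esrrb, which mark embryonic stem cells, each had 516 counts or more in every washout library. Sox2 had 0 counts in all 8, and its long host transcript overlaps it on the same strand. Markers of other lineages stayed low: the highest of the 9 in any library was Eomes with 208 counts, and Col1a1, Col1a2, Fgf5, Pax6 and Sox17 had 20 or fewer in every library.

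RNA polymerase II often starts in both directions at an active promoter. The upstream, mostly antisense product is usually terminated early, with help from the Integrator complex and cleavage and polyadenylation factors. It is then handed by the cap-binding complex and the NEXT complex (MTR4, ZCCHC8 and RBM7) to the nuclear RNA exosome, which degrades it. PROMPTs are therefore scarce in total RNA and are seen better in newly made RNA. FACT removes and replaces histone H2A-H2B dimers ahead of and behind the polymerase, and in yeast its loss lets transcription start at sites that nucleosomes normally cover.

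The sequence upstream of the start site is shown for 7 hosts whose PROMPTs are described below, 5 signed positive and 2 signed negative at 12 h. The choice was made with the values known. Each line holds the 250 bases before the RefSeq start (build GRCm38.p6), written 5′ to 3′ on the strand of the host gene. For Dkk1 and Cdkn2d the RefSeq start lies 169 and 198 bases downstream of the start in GENCODE M21. That many of their 250 bases, with the TATAAA of Dkk1, thus lie inside the GENCODE gene. A PROMPT made in the antisense direction would leave this stretch toward its left end. Capitals mark every match to TATAAA (the TATA box), to CCAAT (the CCAAT box) or to GGGCGG (the GC box) on either strand. The tables give no coordinates for the PROMPTs, so where in this stretch they begin is not known. Foxd1 lies at chr13:98353995-98354244 on the plus strand, Cyp1b1 at chr17:79715062-79715311 on the minus strand, Dkk1 at chr19:30549497-30549746 on the minus strand, H2aj at chr6:136807998-136808247 on the plus strand and Spsb3 at chr17:24886393-24886642 on the plus strand. Mob1b lies at chr5:88720621-88720870 on the plus strand and Cdkn2d at chr9:21291210-21291459 on the minus strand.
Foxd1: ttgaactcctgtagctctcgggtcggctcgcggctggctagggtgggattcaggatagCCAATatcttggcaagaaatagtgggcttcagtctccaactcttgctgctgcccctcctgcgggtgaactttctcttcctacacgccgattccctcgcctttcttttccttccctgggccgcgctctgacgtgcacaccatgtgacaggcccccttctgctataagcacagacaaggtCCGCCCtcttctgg
Cyp1b1: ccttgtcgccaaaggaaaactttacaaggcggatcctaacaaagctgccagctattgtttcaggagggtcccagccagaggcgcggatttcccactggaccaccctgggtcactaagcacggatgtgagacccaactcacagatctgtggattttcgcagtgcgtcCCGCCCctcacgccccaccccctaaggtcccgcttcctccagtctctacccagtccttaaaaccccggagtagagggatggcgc
Dkk1: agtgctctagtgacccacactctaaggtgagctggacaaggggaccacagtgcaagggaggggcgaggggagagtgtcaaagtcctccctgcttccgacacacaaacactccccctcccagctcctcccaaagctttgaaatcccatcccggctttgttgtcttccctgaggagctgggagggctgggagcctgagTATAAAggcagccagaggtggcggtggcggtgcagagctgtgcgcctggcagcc
H2aj: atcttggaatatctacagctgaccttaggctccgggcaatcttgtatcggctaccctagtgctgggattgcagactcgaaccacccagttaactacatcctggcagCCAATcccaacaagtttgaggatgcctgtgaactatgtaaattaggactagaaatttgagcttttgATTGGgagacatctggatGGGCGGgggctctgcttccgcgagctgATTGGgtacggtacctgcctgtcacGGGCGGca
Spsb3: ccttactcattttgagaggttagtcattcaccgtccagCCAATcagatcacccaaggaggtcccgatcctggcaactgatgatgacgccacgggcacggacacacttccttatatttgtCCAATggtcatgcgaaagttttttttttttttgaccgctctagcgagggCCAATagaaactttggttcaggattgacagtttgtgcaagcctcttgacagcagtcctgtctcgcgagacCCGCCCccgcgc
Mob1b: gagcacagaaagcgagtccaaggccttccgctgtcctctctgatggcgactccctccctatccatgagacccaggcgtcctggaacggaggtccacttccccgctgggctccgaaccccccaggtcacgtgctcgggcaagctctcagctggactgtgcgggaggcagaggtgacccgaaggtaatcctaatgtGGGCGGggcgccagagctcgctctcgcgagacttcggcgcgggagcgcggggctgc
Cdkn2d: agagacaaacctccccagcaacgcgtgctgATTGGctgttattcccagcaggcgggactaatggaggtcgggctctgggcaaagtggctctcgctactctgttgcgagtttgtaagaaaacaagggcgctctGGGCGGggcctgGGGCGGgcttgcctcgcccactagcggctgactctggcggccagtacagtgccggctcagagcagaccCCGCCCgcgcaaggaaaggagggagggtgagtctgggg

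Of these 7, Dkk1 alone holds TATAAA, and the H2aj and Spsb3 stretches each hold 3 matches to CCAAT. The GC content is 57.2% for Foxd1, 58.0% for Cyp1b1, 60.8% for Dkk1, 51.6% for H2aj and 50.8% for Spsb3, and it is 66.4% for Mob1b and 63.6% for Cdkn2d. In all, 1555 of the 1942 hosts matched a RefSeq promoter, here 250 bases before to 50 bases after the start. For 1208 of them the RefSeq start lay within 100 bases of the GENCODE start. For a host the promoter nearest its GENCODE start was taken. For the 27025 RefSeq promoters (1 per symbol) the first by chromosome and coordinate was taken, for every symbol, whether transcribed in these cells or not. Hosts and all promoters were thus picked by unlike rules, which limits every comparison between them here and below. The median GC content was 60.7% for hosts, against 52.7% over all promoters. The median observed-to-expected ratio of CpG was 0.798 for hosts and 0.380 over all promoters. GGGCGG stood in 64.1% of host promoters against 35.6% of all, and TATAAA in 8.10% against 14.1%.

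Within the set, promoters of hosts with a positive PROMPT at 12 h had a median GC content of 57.0% (52 matched), those with a negative PROMPT 63.3% (28 matched) and those with neither 60.7% (1475 matched). GGGCGG stood in 48.1% of the promoters with a positive PROMPT, 53.6% of those with a negative one and 64.8% of the rest. TATAAA stood in 13.5%, 14.3% and 7.80%. On the antisense strand of the 250 upstream bases, GTAAGT, which resembles a 5′ splice site, was found at 0 of 52 positive and 0 of 28 negative hosts, at 1.22% of the rest and at 3.12% of all promoters. The polyadenylation hexamer AATAAA was found there at 3.85%, 3.57% and 4.61%, against 9.66% of all promoters. These shares are descriptions of short windows and carry no test.

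PROMPTs of named genes were scarce. The median mean normalised count, over all libraries of a time and by the authors' own scaling within each deposited table, was 12.9 at 0 h, 9.0 at 3 h, 5.51 at 6 h and 6.08 at 12 h. At 12 h, 1405 of the 1942 lay between 3 and 10, and 27 lay at 50 or more. The 8 highest mean counts at 12 h belonged to the windows of mt-Tt (1544), mt-Tw (850.3), mt-Ti (464), Snhg7os (294), mt-Tp (264), Zfp202 (188), Tasor (112) and Cd38 (104). Of these hosts 4 are transfer RNA genes of the mitochondrial genome, where upstream sequence is itself densely transcribed. Of the 8, Cd38, which encodes an ecto-enzyme that consumes NAD, was the 1 called at 12 h, at -1.73 ± 0.47 (adjusted p = 0.00223). Tasor, a subunit of the HUSH silencing complex, had a PROMPT change of -0.44 ± 0.35 (adjusted p = 0.388).

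At 12 h the authors' deposited table called 105 of the 1942 PROMPTs at an adjusted p under 0.05, 69 positive and 36 negative. That is 5.41% of the set, beside 5.05% of all 3052 rows with an adjusted p (3.11% positive and 1.93% negative). PROMPTs of the 568 predicted or clone-named hosts had 15 positive and 23 negative calls. Positive calls had a median mean count of 7.86, beside 5.96 for the 1837 uncalled PROMPTs. Their median log2 fold change was 2.66 (range 1.30 to 8.85). Negative calls were more abundant, with a median mean count of 19.2 and a median log2 fold change of -2.14 (range -5.44 to -0.98). Among PROMPTs with a mean count from 3 to 5, 20 of 762 were positive (2.62%) and 5 negative. From 5 to 10, 21 of 643 were positive (3.27%) and 7 negative, and from 10 to 20, 20 of 363 were positive (5.51%) and 7 negative. From 20 to 50, 8 of 147 were positive and 13 negative, and at 50 or more 0 of 27 were positive and 4 negative. At the lower end the counts are small: the median total over the 6 libraries was 47.1 normalised counts for positive calls (lowest 18.7) and 115 for negative ones.

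**Figure D1:**
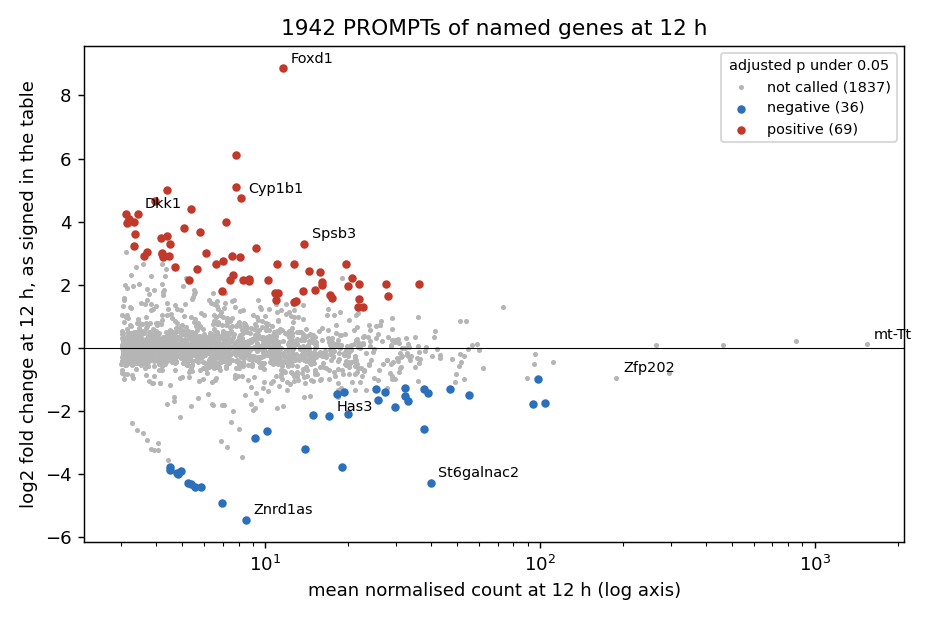
Log2 fold change at 12 h (as signed in the authors' deposited table) against the mean normalised count at 12 h on a log axis, 1 point per PROMPT. The 69 positive calls (red) reach up to a mean count of 36.3 and the 36 negative calls (blue) up to 104. The 1837 uncalled PROMPTs (grey) centre on 0.

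The PROMPT of Foxd1, a forkhead transcription factor of kidney stroma and retina, had the highest value of all in the authors' deposited 12 h table, 8.85 ± 2.77 with a mean count of 11.6 (adjusted p = 8.24e-08). Its mean count was 0.240 at 0 h, 0.517 at 3 h and 1.05 at 6 h. The PROMPT of Dkk1, a secreted inhibitor of Wnt signalling, was at 4.26 ± 1.68 (mean count 3.44, adjusted p = 0.0146). That of En2, a homeobox gene of midbrain and cerebellum, was at 2.97 ± 1.40 (adjusted p = 0.0413). All 3 had mean counts of 1.79 or less at 0, 3 and 6 h, so at those times hardly any RNA was counted. Every member had to reach a mean count of 3 at 12 h. For these 3, and for Cyp1b1 below, lower mean counts at other times therefore do not show a rise. Pawr, an apoptosis regulator that binds WT1, had a PROMPT at 5.09 ± 1.19, and the PROMPT of Rhoa, a small GTPase of the actin cytoskeleton, stood at 5.01 ± 1.56.

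Enzymes were found on both sides. The PROMPT of Cyp1b1, a cytochrome P450 under control of the aryl hydrocarbon receptor, was at 4.74 ± 1.03 at 12 h, with mean counts of 0 at 0 h, 0.664 at 3 h, 0.447 at 6 h and 8.16 at 12 h. Those of Tesk1, a kinase that acts on cofilin, and Hif1an, the asparaginyl hydroxylase that restrains HIF, stood at 4.23 ± 1.73 and 4.07 ± 1.72 in the authors' deposited table. On the negative side the PROMPT of St6galnac2, a sialyltransferase, was at -4.26 ± 0.79 with a mean count of 40.1 (adjusted p = 2.06e-05). This was the smallest adjusted p among negative calls. The mean count of this PROMPT was 279 at 0 h, 87.9 at 3 h and 44.4 at 6 h, where it was not called. The PROMPT of Has3, a hyaluronan synthase, was at -2.16 ± 0.79 with a mean count of 17.1 at 12 h. Its mean count was 104 at 0 h, 39.1 at 3 h and 17.1 at 6 h, where it was not called. Mean counts pool all libraries of a time, so their fall between times is not the called difference.

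The PROMPT of Hnrnpf, an RNA-binding protein that regulates splicing, was at 4.66 ± 1.59 in the authors' deposited table. PROMPTs of 2 splicing regulators of the SR family were negative, Srsf10 at -2.58 ± 0.53 and Srsf4 at -1.29 ± 0.47. Srsf10 was named after its value was seen. A separate list of splicing and hnRNP genes held 6 hosts, Srsf6 among them, with 0 calls and values from -0.14 to 0.30.

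The remaining most negative PROMPTs were scarcer. Znrd1as, an antisense RNA, was the host of the lowest value, -5.44 ± 2.46 with a mean count of 8.54. The PROMPTs of Ggact (-4.90 ± 2.48), Lztr1 (-4.40 ± 2.55), Tbc1d8 (-4.39 ± 2.46), Brca2 (-3.97 ± 2.50), Borcs7 (-3.89 ± 2.64) and Cdkn2d (-3.87 ± 2.48) had mean counts between 4.51 and 6.95 in the authors' deposited table and SEs of 2.46 or more. Brca2 encodes a DNA repair protein and Cdkn2d the cell cycle inhibitor p19. Traj5, Traj6 and Traj7, neighbouring joining segments of the T cell receptor alpha locus, stood at -4.32 ± 2.48, -3.98 ± 2.56 and -4.27 ± 2.46. The 3 kb upstream of these 3 hosts overlap, so their PROMPTs may count much the same stretch of genome. The authors' own windows are not known. In all, 70 PROMPTs share part of the 3 kb upstream of their host with another member. Mob1b, a co-activator of the LATS kinases in Hippo signalling, combined a higher mean count of 19.1 with a value of -3.77 ± 0.92 (adjusted p = 0.00181).

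**Figure D2:**
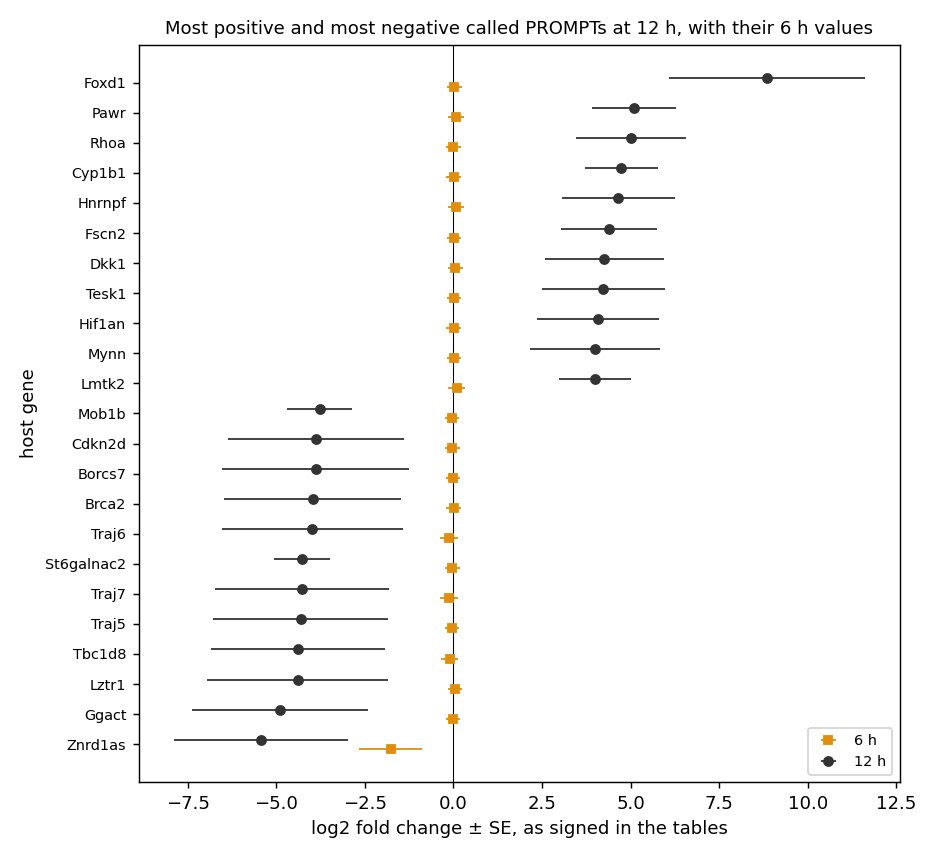
Log2 fold changes ± SE at 6 h (orange squares) and 12 h (black circles) for 11 of the 12 PROMPTs with the most positive and the 12 with the most negative called values at 12 h, from the authors' deposited tables. Of the 6 h values plotted, only that of Znrd1as (-1.77) lies far from 0. The 6 h values appear strongly shrunken toward 0, so a value near 0 does not show that a PROMPT was unchanged.

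At earlier times few PROMPTs were called. The authors' deposited 0 h table, which has no treatment, called 1 of 1938, the window upstream of mt-Nd5 (negative, -1.85 ± 0.42, adjusted p = 0.00415), beside 0.00821% of its 12182 rows. At 3 h it called 0 of 1938, and 0 of all 13088 rows. There 61 PROMPTs of the set (3.15%) had an unadjusted p under 0.05. The fold changes of nearly all PROMPTs at 0 and 3 h lie within 0.01 of 0 in these tables, so sizes cannot be read from them. At 6 h the table called 4 of 1797, all positive, which are all 4 calls among its 3292 rows (0.122%).

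Among the 4 were the PROMPTs of H2aj, Ier2 and Pspc1. H2aj, a replication-independent histone H2A variant, was at 2.13 ± 0.55 at 6 h (adjusted p = 0.0102) and at 1.82 ± 0.61 at 12 h (adjusted p = 0.0124). Ier2, an immediate early gene, was at 2.10 ± 0.58 at 6 h (adjusted p = 0.0187) and at 2.01 ± 0.52 at 12 h (adjusted p = 0.00153). Pspc1, a protein of nuclear paraspeckles, was at 2.03 ± 0.62 at 6 h (adjusted p = 0.0446), while its 12 h value of 2.21 ± 1.17 had an adjusted p of 0.0626. None of these 3 host genes was called at 6 or 12 h in the authors' deposited gene tables, where their own 12 h changes were -0.10 ± 0.32, -0.03 ± 0.35 and -0.61 ± 0.29.

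PROMPTs called at 12 h carried the same sign at 6 h, in other libraries, more often than not. Of the 69 positive at 12 h, 64 had a positive and 5 a negative value at 6 h in the authors' deposited tables. Of these 69, 20 (29.0%) had a positive value with an unadjusted p under 0.05 at 6 h and 0 a negative one. Of the 36 negative at 12 h, 30 had a negative value at 6 h, 12 (33.3%) with an unadjusted p under 0.05, and 0 were positive with such a p. Signs at 6 h were not balanced among the 1837 uncalled PROMPTs either, with 1074 positive and 763 negative. Their shares with an unadjusted p under 0.05 at 6 h were 3.70% positive and 2.18% negative. The 6 h medians were 0.06 for the 12 h positives and -0.08 for the negatives. Over the whole set the 5% and 95% quantiles were -0.08 and 0.12 at 6 h, against -1.06 and 1.53 at 12 h. The fold changes appear shrunken toward 0, so a 6 h value near 0 does not show that a PROMPT was unchanged. At 3 h, by contrast, positives had 4 positive and 3 negative values with an unadjusted p under 0.05, and negatives 0 and 1. Over all 1942, the values at 6 and 12 h had a Pearson correlation of 0.304 and a Spearman correlation of 0.387, given as a description since PROMPTs of a library share its depth.

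The mean counts at 12 h and 0 h are set side by side as a description. Each mean pools all libraries of its time. The 12 h mean count chose the PROMPTs, so one that was scarce at 0 h could enter only where its 12 h mean was high, and the ratios support no reading of the sign. For 66 PROMPTs positive at 12 h and counted at both times, the log2 ratio of the mean count at 12 h to that at 0 h had a median of 0.24. It was -1.74 for the 36 negative ones and -1.03 for 1836 uncalled ones, and the tables were scaled separately. Above the median of the uncalled ones lay 62 of the 66 positive and 1 of the 36 negative PROMPTs. Host genes showed the same order in the authors' deposited gene tables, with medians of -0.23 for 105 positive genes, -1.53 for 317 negative and -0.92 for 1381 uncalled ones. Relative to the 3 h table the PROMPT medians were 0.49, -1.11 and -0.48. The ratios do not tell which of the 3 groups of 12 h libraries carried the difference. At 0 h the median mean count was 7.21 for positive, 72.1 for negative and 12.8 for uncalled PROMPTs in the same subset.

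**Figure D3:**
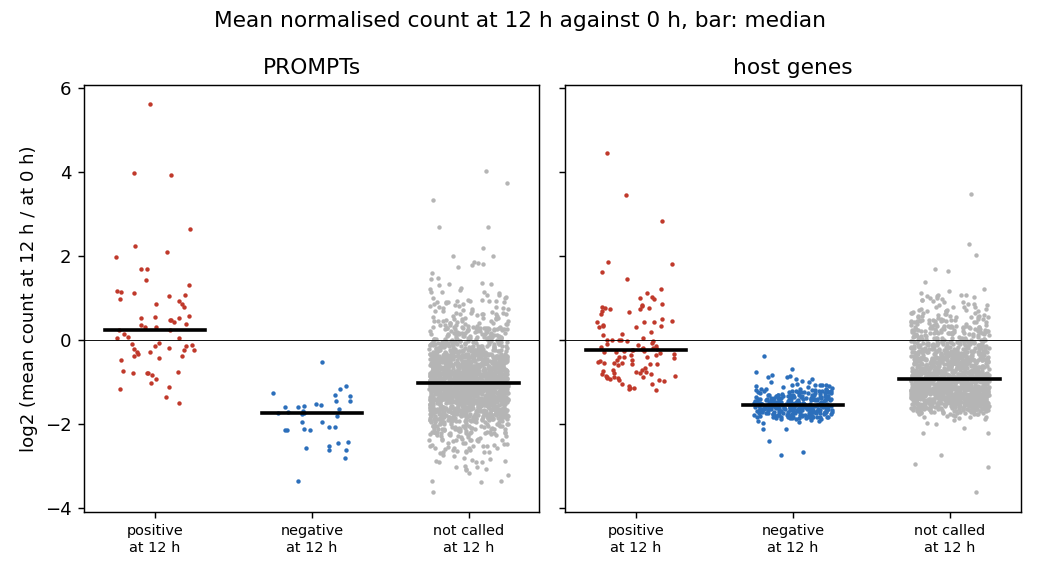
Log2 ratio of the mean normalised count at 12 h to that at 0 h for PROMPTs (left) and host genes (right), by call at 12 h, 1 point per feature and a bar at the median. PROMPT medians are 0.24 for positive, -1.74 for negative and -1.03 for uncalled PROMPTs.

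The host genes themselves held more calls. The authors' deposited 12 h gene table tested 1805 of them, and 106 were positive and 317 negative, or 23.4%, beside 20.7% of all 15917 genes (8.58% positive and 12.1% negative). At 6 h, 32 were positive and 29 negative of 1708, at 3 h 16 positive and 0 negative of 1619, and at 0 h 0 positive and 2 negative of 1787. Over all genes the shares were 1.71% positive and 1.39% negative at 6 h, 0.531% and 0.0458% at 3 h, and 0.0201% and 0.355% at 0 h. Over either sign they were 3.10% at 6 h, 0.577% at 3 h and 0.376% at 0 h. PROMPT and gene tables of a time come from the same libraries, so their values are not independent of each other. Over the 1837 PROMPTs with a host value, the 12 h changes of PROMPT and host had a Pearson correlation of 0.110 and a Spearman correlation of 0.098.

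Hosts of changed PROMPTs went both ways. Of 64 tested hosts of positive PROMPTs, 6 were positive (9.38%) and 11 negative (17.2%). Of 29 tested hosts of negative PROMPTs, 4 were positive and 4 negative (13.8% each). Hosts of uncalled PROMPTs were positive in 96 (5.61%) and negative in 302 (17.6%) of 1712. PROMPT and host were therefore called together in 25 cases, 10 with the same sign and 15 with opposite signs. The balance turned at an adjusted p under 0.1 for both, with 28 of the same sign and 25 of opposite signs.

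Of the 6 jointly positive pairs, 3 had large changes on both sides. The Foxd1 gene was at 4.02 ± 0.74 (adjusted p = 4.69e-07), beside 8.85 ± 2.77 for its PROMPT. The Dkk1 gene was at 4.52 ± 0.51, beside 4.26 ± 1.68, and was already positive at 6 h (1.52 ± 0.56, adjusted p = 0.0203). The Cyp1b1 gene was at 3.41 ± 0.75, beside 4.74 ± 1.03. In the authors' deposited table Tesk1 stood at 1.54 ± 0.34, En2 at 1.85 ± 0.45 and Acadvl, a mitochondrial fatty acid dehydrogenase, at 1.18 ± 0.55 with its PROMPT at 1.30 ± 0.47.

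In 11 pairs a positive PROMPT stood beside a negative host. Star, which carries cholesterol into mitochondria, had the lowest host value, -2.03 ± 0.43, with its PROMPT at 1.99 ± 0.59. Trim24, a chromatin reader and ubiquitin ligase, was at -1.33 ± 0.39 with its PROMPT at 2.02 ± 0.45, which at a mean count of 36.3 was the most abundant positive PROMPT. Hnrnpf (-1.15 for the host), Dnajc11 (-1.15), Mtdh (-1.01), Il17rd (-0.73), Kansl2 (-0.73), Rnf169 (-0.70), Triml2 (-0.67) and Naf1 (-0.54) also belonged to the group in the authors' deposited tables, with PROMPTs between 1.59 and 4.66. Kansl2 is a subunit of the NSL acetyltransferase complex and Naf1 an assembly factor of box H/ACA ribonucleoproteins.

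The 4 pairs with a negative PROMPT and a positive host were Has3 (1.41 ± 0.37 for the host), Cdkn2d (1.08 ± 0.60), Dnajc19 (0.96 ± 0.40), a component of the mitochondrial import machinery, and Map3k12 (0.55 ± 0.24), a kinase of axonal stress signalling. In the authors' deposited tables their PROMPTs stood at -2.16, -3.87, -1.64 and -1.68. Both were negative for Ube2n, the E2 enzyme of K63-linked ubiquitin chains (-1.15 for the host and -2.63 for the PROMPT), and for H2-M5, Fnbp4 and Srsf4, whose hosts stood at -0.62, -0.58 and -0.47.

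**Figure D4:**
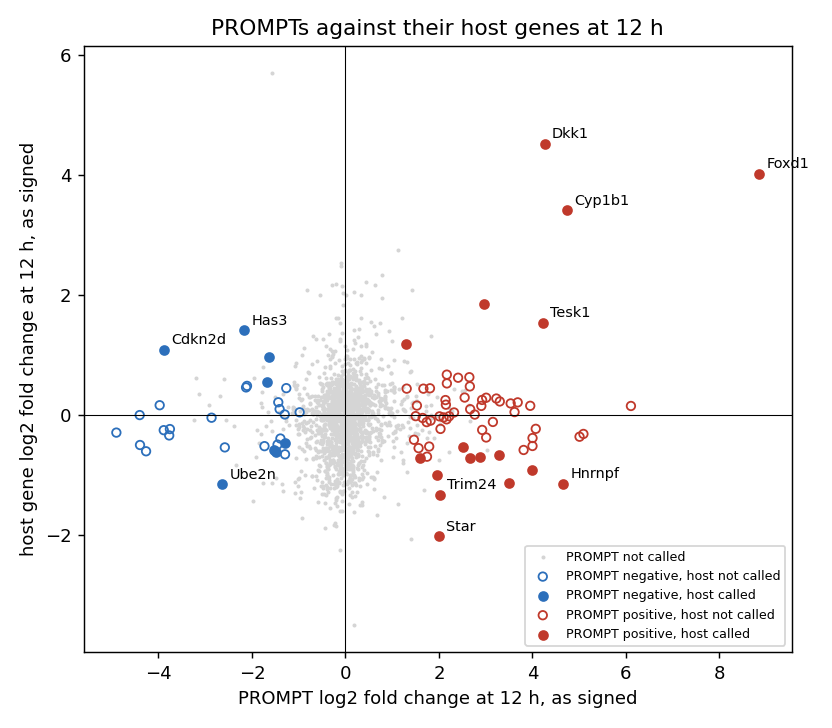
Change of the host gene against change of its PROMPT at 12 h, both as signed in the authors' deposited tables. Filled points are the 25 pairs in which both were called, open points pairs in which only the PROMPT was (red positive, blue negative), and grey points uncalled PROMPTs. Filled points lie in all 4 quadrants, 6 positive and 4 negative on both axes.

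A PROMPT window can hold the start of a neighbouring gene. The 3 kb upstream of the host start in GENCODE M21 (mm10) were searched, and each member was put in the first class it met. In order, the classes were a gene that starts on the other strand (197 members, 10.1%), a gene on the same strand (305, 15.7%), the body of a gene on the other strand (64, 3.30%) and no annotated gene (1373, 70.7%). Members of the first class can therefore also have a gene on the same strand. Of the 197, 10 (5.08%) were positive and 3 (1.52%) negative in the authors' deposited 12 h table. Of the 1373, 48 (3.50%) were positive and 23 (1.68%) negative, so 71 of the 105 calls had no annotated gene in these 3 kb. The 3 kb stretch was set here. The windows and the strand on which PROMPTs were counted are not given in the sources used here. A PROMPT and a neighbour therefore cannot be told apart for the other hosts.

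Neighbours on the other strand did not all move with the PROMPT. Acadvl faces Dlg4, a scaffold protein of synapses, which starts 1531 bases upstream and stood at 2.48 ± 0.38 at 12 h (adjusted p = 1.92e-09). Spsb3, an adaptor of a ubiquitin ligase, faces Nubp2 at 294 bases, and its PROMPT was at 3.30 ± 0.68 while Nubp2 was at 0.95 ± 0.59 (adjusted p = 0.0676). Tmem79 faces Smg5, a factor of nonsense-mediated decay, at 112 bases: the PROMPT was at 2.17 ± 0.69 and Smg5 at -0.64 ± 0.25 (adjusted p = 0.0236). Rbmxl1 faces Slc10a7 at 448 bases, with the PROMPT at 2.03 ± 0.49 and Slc10a7 at -0.84 ± 0.35 (adjusted p = 0.0196). Znrd1as faces Znrd1 at 33 bases, with the PROMPT at -5.44 ± 2.46 and Znrd1 at 0.31 ± 0.35 (adjusted p = 0.422). Of the 8 tested facing genes of positive PROMPTs, 1 was positive and 2 negative in the authors' deposited table. These 5 pairs were picked with their values known.

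Some genes that carry out PROMPT turnover host a PROMPT themselves. Of 29 genes of exosome subunits, NEXT and PAXT cofactors, cap-binding proteins, Integrator and early termination factors, 7 host a PROMPT in the set (Exosc10, Ints1, Srrt, Wdr82, Xrn2, Zc3h4 and Zcchc8). None of the 7 was called at 12 h in the authors' deposited PROMPT table, beside 5.41% of the whole set, and their values ran from -0.39 to 1.19. Of the 27 genes of this list tested in the 12 h gene table, 0 were positive and 8 negative, beside 8.58% and 12.1% of all genes. Pcf11, a termination factor of the cleavage and polyadenylation machinery, had the lowest value, -1.54 ± 0.22 (adjusted p = 1.43e-10). Zc3h4, which restricts transcription of noncoding regions, was at -0.99 ± 0.20, and the Integrator subunits Ints6 and Ints3 at -0.96 ± 0.27 and -0.75 ± 0.22. Exosc5 (-0.72 ± 0.22) and Exosc7 (-0.49 ± 0.21), which are exosome core subunits, Cpsf3 (-0.70 ± 0.22), the endonuclease of polyadenylation, and Wdr82 (-0.62 ± 0.24), a partner of Zc3h4, made up the 8 in the authors' deposited table. At 6 h, Pcf11 was negative (-0.54 ± 0.21) and Ints1 positive (1.18 ± 0.41, adjusted p = 0.0175), and no gene of the list was called at 0 or 3 h.

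Other host groups held few calls. Genes of naive and core pluripotency hosted 14 PROMPTs with 0 calls at 12 h in the authors' deposited table, while 6 of these hosts were negative as genes, beside 12.1% of all genes and 17.6% of the hosts of uncalled PROMPTs. Among them, the PROMPTs of Nanog and Sox2 stood at 0.33 ± 0.34 and 0.14 ± 0.41 and that of Pou5f1 at -1.10 ± 0.67 (adjusted p = 0.116). Ier2 was the 1 call among 7 immediate early and stress hosts. The 5 heat shock hosts, 5 hosts among histone chaperones and elongation factors, 6 cell cycle hosts, 3 p53 target hosts and 6 splicing and hnRNP hosts had 0 calls. By name families, 1 PROMPT was positive and 0 negative among each of 42 zinc finger hosts (Zfp865, 2.13), 37 solute carriers (Slc38a7, 2.92), 19 mitochondrial ribosomal proteins (Mrpl20, 2.15) and 16 proteasome genes (Psmd3, 2.67 ± 0.53, adjusted p = 3.43e-05). Replication-dependent histone genes (11), Snhg genes (2) and mitochondrially encoded genes (5) had 0 calls, and none of the 9 markers of other cell types hosts a member. Whether 0 differs from the background of 5.05% cannot be read from groups of this size.

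The washout experiment measured genes only, and asked which host genes still differed 24 h after IAA was removed. Of 1941 hosts in the count table, 1746 passed the filter on low counts. By edgeR's quasi-likelihood test (FDR under 0.05 over all genes tested), 148 (8.48%) were higher and 100 (5.73%) lower in IAA than in EtOH libraries. Over all 15110 genes tested the shares were 8.83% higher and 7.60% lower. Hosts of PROMPTs positive at 12 h were higher in 7 of 58 (12.1%) and lower in 0, with 4 lower at an unadjusted p under 0.05 and 0 lower by DESeq2. Hosts of PROMPTs negative at 12 h were higher in 1 and lower in 1 of 30. Counts of calls fell by over 1.5 times when single libraries were left out. Higher calls numbered 72 without IAA 10E replicate 1, 94 without IAA 10E replicate 2 and 87 without EtOH 10E replicate 2. Lower calls numbered 49, 55 and 52 without the same libraries, 63 without IAA 11D replicate 1 and 66 without EtOH 10E replicate 1.

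Dkk1 had the largest log2 fold change among the hosts named above that passed the filter on low counts. It had 5.88, 4.22, 3.23 and 2.56 CPM (counts scaled to library size by TMM) in IAA libraries of lines 10E (first pair) and 11D, against 0.309, 0.185, 0.274 and 0.0472 CPM in EtOH libraries. Every IAA library lay above every EtOH library. The EtOH values rest on 4, 4, 5 and 1 raw counts, and the IAA values on 30, 32, 32 and 23. Dkk1 therefore passed the filter through its IAA libraries alone, and the size of its change is imprecise. The means were 3.97 ± 1.45 CPM in IAA and 0.204 ± 0.117 CPM in EtOH libraries (SD, n = 4 each), and the log2 fold change by edgeR was 4.27 ± 0.52 (FDR = 0.000406). Tbc1d8, a host with a negative PROMPT, had 287, 275, 288 and 308 CPM in IAA libraries against 217, 210.2, 216 and 185 CPM in EtOH libraries. The groups did not overlap, and edgeR gave 0.48 ± 0.15 (FDR = 0.0424). This call was lost with line as a block (0.48) and when any 1 of the 8 libraries was left out (0.43 to 0.51).

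Cyp1b1 and Foxd1 did not pass the filter. Cyp1b1 had 4, 13, 2 and 2 counts in IAA libraries and 0, 0, 1 and 0 counts in EtOH libraries, so the IAA libraries were all higher, at very low counts. Foxd1 had 18, 8, 5 and 8 counts in IAA libraries and 4, 8, 6 and 2 counts in EtOH libraries, and the groups overlapped. H2aj had 13.4 ± 3.22 CPM in IAA and 16.3 ± 4.71 CPM in EtOH libraries (SD, n = 4 each). By edgeR its log2 fold change was -0.28 ± 0.26 (FDR = 0.475), that for Ier2 -0.84 ± 0.36 (FDR = 0.133) and for Pspc1 -0.18 ± 0.21 (FDR = 0.587). Star stood at -0.48 ± 0.28 (FDR = 0.264), Trim24 at 0.08 ± 0.24 (FDR = 0.837), Has3 at 0.40 ± 0.42 (FDR = 0.540) and St6galnac2 at 0.20 ± 0.41 (FDR = 0.769). In each of these the IAA and EtOH libraries overlapped.

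**Figure D5:**
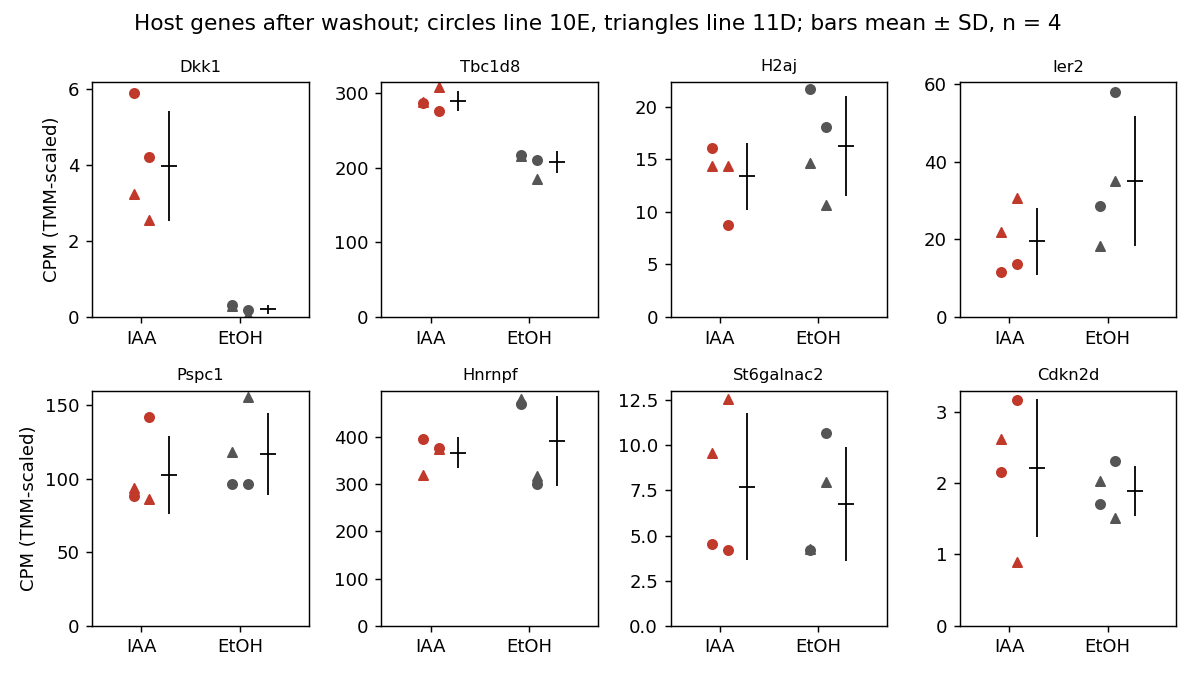
CPM of 8 host genes after washout in 4 IAA (red) and 4 EtOH (grey) libraries, circles for line 10E and triangles for line 11D, with the mean ± SD beside them (axes start at 0). Of these 8, all IAA libraries lie above all EtOH libraries for Dkk1 and Tbc1d8.

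Another 6 hosts of positive PROMPTs were higher in IAA libraries after washout, none of them called as a gene at 12 h. They were Sgsm2, a regulator of Rab GTPases (0.92 ± 0.16, FDR = 0.00315 by edgeR), Srp72 of the signal recognition particle (0.84 ± 0.17), Khdrbs1, an RNA-binding protein (0.76 ± 0.22), Uso1, a Golgi tethering factor (0.67 ± 0.19), the proteasome subunit Psmd3 (0.58 ± 0.17) and Vps11, a tether of endosomes and lysosomes (0.56 ± 0.18). Sgsm2 had 44.9, 33.3, 35.4 and 37.1 CPM in IAA libraries against 19.6, 21.1, 18.3 and 20.5 CPM in EtOH libraries, with no overlap. Ankle1, a host of a negative PROMPT, was lower, at -0.89 ± 0.28 (FDR = 0.0465). In line 10E it had 8.63 and 8.43 CPM in IAA against 20.3 and 32.9 CPM in EtOH libraries. In line 11D the values lay closer, at 15.9 and 18.1 against 18.5 and 23.8 CPM. Its line-by-treatment interaction by edgeR was 1.33 ± 0.40 (unadjusted p = 0.00658, FDR = 0.264). Leaving out 1 library at a time ended no call for Sgsm2 or Srp72. It ended the call of Khdrbs1 without either IAA 10E library, EtOH 10E replicate 2 or EtOH 11D replicate 2 (0.59 to 0.71), and that of Psmd3 without any of the 4 libraries of line 10E or EtOH 11D replicate 2 (0.50 to 0.60). It ended those of Uso1 (0.54 to 0.71) and Ankle1 (-0.99 to -0.70) without any library other than IAA 11D replicate 2 and EtOH 11D replicate 1, and that of Vps11 without any other than IAA 10E replicate 2 (0.49 to 0.59). Line as a block also ended that of Vps11 (0.56). These hosts were picked with their values known.

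Among the 29 turnover genes, 27 were tested after washout, and 4 were higher and 1 lower in IAA libraries, beside 8.83% higher and 7.60% lower over all genes tested. Ints1, the largest Integrator subunit, had 117, 95.8, 60.9 and 49.3 CPM in IAA libraries against 28.8, 30.7, 23.5 and 23.7 CPM in EtOH libraries (1.60 ± 0.25, FDR = 0.00213 by edgeR). Ncbp1, the large cap-binding subunit, had 95.5 ± 13.8 CPM in IAA and 55.4 ± 9.92 CPM in EtOH libraries (0.79 ± 0.18, FDR = 0.0116). Dis3, a catalytic exosome subunit, was at 0.60 ± 0.16 (FDR = 0.022) and Ints3 at 0.56 ± 0.18 (FDR = 0.0481). Pcf11 was lower, with 42.4, 39.4, 66.8 and 51.9 CPM in IAA libraries against 69.9, 93.0, 85.2 and 94.9 CPM in EtOH libraries (-0.77 ± 0.19, FDR = 0.0183). Leaving out 1 library at a time ended no call for Ints1 or Ncbp1. It ended that of Pcf11 without IAA 10E replicate 1 (-0.69) or EtOH 10E replicate 2 (-0.74), that of Dis3 without any of the 4 libraries of line 10E or IAA 11D replicate 1 (0.54 to 0.62) and that of Ints3 without any library other than EtOH 10E replicate 1 (0.44 to 0.64). Line as a block also ended that of Ints3 (0.56) and left 3 genes higher and 1 lower.

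No host gene showed a line-by-treatment interaction at an FDR under 0.05 by edgeR, of 1746 tested, and no gene of the whole table did. At an unadjusted p under 0.05 there were 264 hosts (15.1%) and 14.9% of all genes.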

How the data were processed

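TT-seq was done on 22 time-course and 8 washout libraries. STAR, deepTools and mm10 are named in the submitters' processing notes. The authors deposited comparison tables with, per PROMPT or gene, a mean normalised count (a signal made by the authors' scaling), a log2 fold change, its SE and p-values. The column names are those of DESeq2 (version not given in the sources used here), and from their values the fold changes appear shrunken toward 0. How PROMPT windows, strands and groups were set is not given there either, and the tables hold no coordinates. Washout counts were deposited as raw counts per gene, made with featureCounts 2.0.1 per the file headers, over whole genes on the reverse strand, so introns are included and genes that overlap on a strand are uncertain.

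PROMPTs were matched to gene rows by name (1880 of 1942), to GENCODE M21 (1939, of which 99.23% had the coordinates of the count table) and to RefSeq promoters (1555). Calls of the time course are the authors' adjusted p under 0.05. Washout counts were tested with edgeR 4.0.16 in R 4.3.3 (quasi-likelihood, robust, TMM, filterByExpr, two-sided, Benjamini-Hochberg over all genes). SEs of its log2 fold changes were taken from the quasi-likelihood F. The fit was run on simulated counts with 200 changed genes, of which 199 were recovered, with 11 false calls. The simulation gave every gene the same dispersion and held no differences between lines or replicates. It therefore cannot show how the fit performs on the real libraries. The same 2 lines were used in both treatments, which pairs libraries by line. Deviations of a line from its group mean had a correlation of -0.16 between treatments. DESeq2 1.42.0, other scalings, filters and blocks were alternatives. Libraries of 1 treatment all differed beyond counting noise (chi-square divided by its degrees of freedom, 13.4 to 72.3). Among EtOH libraries the 2 of replicate 1 gave 13.4 and the 2 of replicate 2 gave 44.4. Pairs across replicate numbers gave 35.9 to 72.3, and the edgeR fit above has no term for replicate number. Whether replicates are separate cultures is not in the labels, and p-values then measure only how these libraries vary, which may be technical.

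Named PROMPTs are the 12 most positive and 12 most negative called at 12 h, all called earlier, the 8 with the highest mean counts, those called together with their host and those called in a listed group. Results of 2 PROMPTs under this rule are not reported here. Members, lists and rules were chosen with earlier results of these data known.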

Additional observations from a re-analysis of the deposited data

Results flagged for a closer look

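Among host genes of the named PROMPTs after washout, 4 single libraries lay far from the other 3 of their treatment, by a rule that chance meets in about 1 of 20 groups. The rule was applied to both treatments of every such host that passed the filter on low counts. A few libraries of this kind therefore arise by chance alone. En2 had 4.56 CPM in IAA 11D replicate 2 and 6.05 to 6.33 CPM in the other IAA libraries. Pspc1 had 142 CPM in IAA 10E replicate 2 and 85.9 to 93.8 CPM in the others. In EtOH libraries, Lztr1 had 18.1 CPM in 11D replicate 2 and 26.1 to 26.6 CPM in the others, and Rnf169 had 155.5 CPM in the same library and 63.9 to 77.0 CPM in the others. None of these 4 hosts was called after washout.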

How the results depend on the processing

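The set held 1180 PROMPTs at a mean count of 5 or more and 537 at 10 or more. At 12 h, positive PROMPTs numbered 114 at an adjusted p under 0.1, 25 under 0.01, 33 with Benjamini-Hochberg over every row with a p and 28 at a mean count of 10 or more, and negative ones 80, 7 and 10 under the first 3 of these settings. At 6 h, positive PROMPTs numbered 8, 1 and 2 under the same 3. Host genes positive at 3 h numbered 43 at an adjusted p under 0.1 and 0 over every row, and at 6 h 67 were positive and 56 negative at 0.1. With 0.1 for both, 28 pairs had the same sign and 25 opposite signs.

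After washout, line as a replicate block gave 134 higher and 89 lower hosts, and 217 of the 248 called hosts were called in both fits. Line and replicate number together as a replicate block gave 72 higher and 51 lower hosts and 2 higher turnover genes; the labels do not say that these numbers pair libraries. Line and replicate number together ended the calls of Ankle1, Khdrbs1, Psmd3, Tbc1d8, Uso1 and Vps11 and of the turnover genes Dis3 and Ints3. Beyond the losses named with their genes above, line alone as a block ended no call of a named host or turnover gene. With no filter on low counts, 157 hosts were lower and 2 turnover genes higher. That setting ended the calls of Dis3, Ints3, Psmd3, Tbc1d8 and Vps11. Leaving out 1 library at a time gave 72 to 139 higher and 49 to 125 lower hosts, and 2 to 3 higher and 0 to 2 lower turnover genes. Leaving out CT010467.1 gave 148 higher and 100 lower hosts. Over 61 host and turnover genes tested singly, 782 of 854 alternative values stayed on the same side of the threshold, 66 lost a call, 6 gained one and 0 changed direction. The cause of these changes was not tested. Depth limits the scarce PROMPTs most, since 1405 of 1942 averaged under 10 counts a library.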
